A study of Drosophila melanogaster with 2 samples.

Results

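The 8 genes described here, twi, sna, tin, bap, Mef2, Doc1, Doc2 and Doc3, encode transcription factors that set up the mesoderm and heart of the Drosophila embryo. They were taken by name, 8 of 13968 protein-coding genes of the Ensembl annotation, and none was chosen for a measured value. Earlier results of these data were known, however, when the genes were chosen. The measurement was chromatin immunoprecipitation and sequencing (ChIP-seq) of Ssrp, a subunit of the histone chaperone FACT, fused at its C terminus to a green fluorescent protein (GFP) tag and pulled down through that tag from sonicated chromatin. A single group was measured: whole embryos of pooled sexes from a transgenic line, 0 to 16 h old, in 2 biological replicates. What follows describes peak positions and ranks in that group. Control libraries were not analysed here. Whole embryos do not tell in which cells a peak arose, and fewer marked cells cannot be told apart from less Ssrp per cell.

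FACT takes nucleosomes apart and puts them back as polymerases pass. Twist (twi), a basic helix-loop-helix activator, and Snail (sna), a zinc-finger repressor, act at the head of the mesoderm programme. The homeodomain factor Tinman (tin) then specifies heart and visceral muscle, Bagpipe (bap) acts in visceral muscle, and the MADS-box factor Mef2 drives muscle differentiation. The Dorsocross T-box genes Doc1, Doc2 and Doc3 lie close together and act with tin in heart formation and in the amnioserosa.

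Each replicate gave a list of 30000 peaks, as did the pooled data, and the list that passed the authors' irreproducible discovery rate (IDR) step, a filter on how well replicate rankings hold together, held 5445. Each peak has a signal set by the authors' caller, on a scale that is not stated. It was used to rank peaks within a list, with rank 1 the strongest, and to set peaks beside others of that list. The IDR peaks are part of the pooled list and have the same signals there. The pooled signal ran from 46.9 to 5979 and that of the IDR list from 157. A peak was given to a gene when its summit, the single base the caller marks as its centre, lay in the gene or within 5 kb of it. Read depth is unknown, because the files used here give no read numbers. Coordinates are those of the dm6 assembly, counted from 1.

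The genes differ greatly in size. The longest is twi (FBgn0003900, chr2R:22985374-23048325, plus strand, 62952 bp), followed by Mef2 (FBgn0011656, chr2R:9913496-9958858, minus strand, 45363 bp). The others are compact. They are sna (FBgn0003448, chr2L:15476593-15478260, minus strand), tin (FBgn0004110, chr3R:21378977-21381970, plus strand) and bap (FBgn0004862, chr3R:21388880-21390449, plus strand). The Doc genes are Doc1 (FBgn0028789, chr3L:9041375-9045042, plus strand), Doc2 (FBgn0035956, chr3L:9012686-9019246, minus strand) and Doc3 (FBgn0035954, chr3L:9005196-9007249, plus strand).

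IDR summits lay in or near 6 of the 8 genes, and the 2 without any were sna and bap. The background was 49.0% of all protein-coding genes, and 55.4% of the 8689 protein-coding genes no shorter than the shortest member (1570 bp) and no longer than the longest (62952 bp). The windows shared 1 summit, between Doc3 and Doc2, so the genes had 15 separate IDR summits. These made 7.53 per 100 kb of window (6 stretches after overlaps were joined, 199175 bp), against 3.96 per 100 kb over the 7 chromosomes. The latter take in sequence far from genes and the Y, which held no peak, so the densities are not matched. In the pooled list they were 37.2 and 21.8 per 100 kb. The median signal of the 15 was 284, against 292 for the whole IDR list, and 7 of them were among its 2722 strongest peaks.

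Of the 8 genes, only tin had an IDR summit within 500 bp of a transcription start site (TSS), which is 1 of 8 genes, near the background of 19.3% of all protein-coding genes. Of the 15 summits, 6 lay in introns of the gene, 1 in a noncoding part of an exon, 4 in the upstream flank, 3 in the downstream flank and 1 in a promoter. None lay in a coding exon of the gene. With the gene body alone, twi, Mef2 and Doc1 had an IDR summit, 3 of 8 genes, against 12.2% of all protein-coding genes. That share was not matched for length, and twi and Mef2 are the longest members. Of protein-coding genes 0.5 to 2 times as long as twi or Mef2, 67.1% and 69.1% had an IDR summit in the gene or within 5 kb. Those shares are for the wider window, and no share matched for length was computed for the gene body. Within 500 bp of a TSS of any gene there were 4 of the 15 summits (26.7%), against 40.7% of all 5445 IDR summits. Besides the one at tin these were 3 at TSSs of other genes, 2 near tin and 1 near Mef2.

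**Figure D1:**
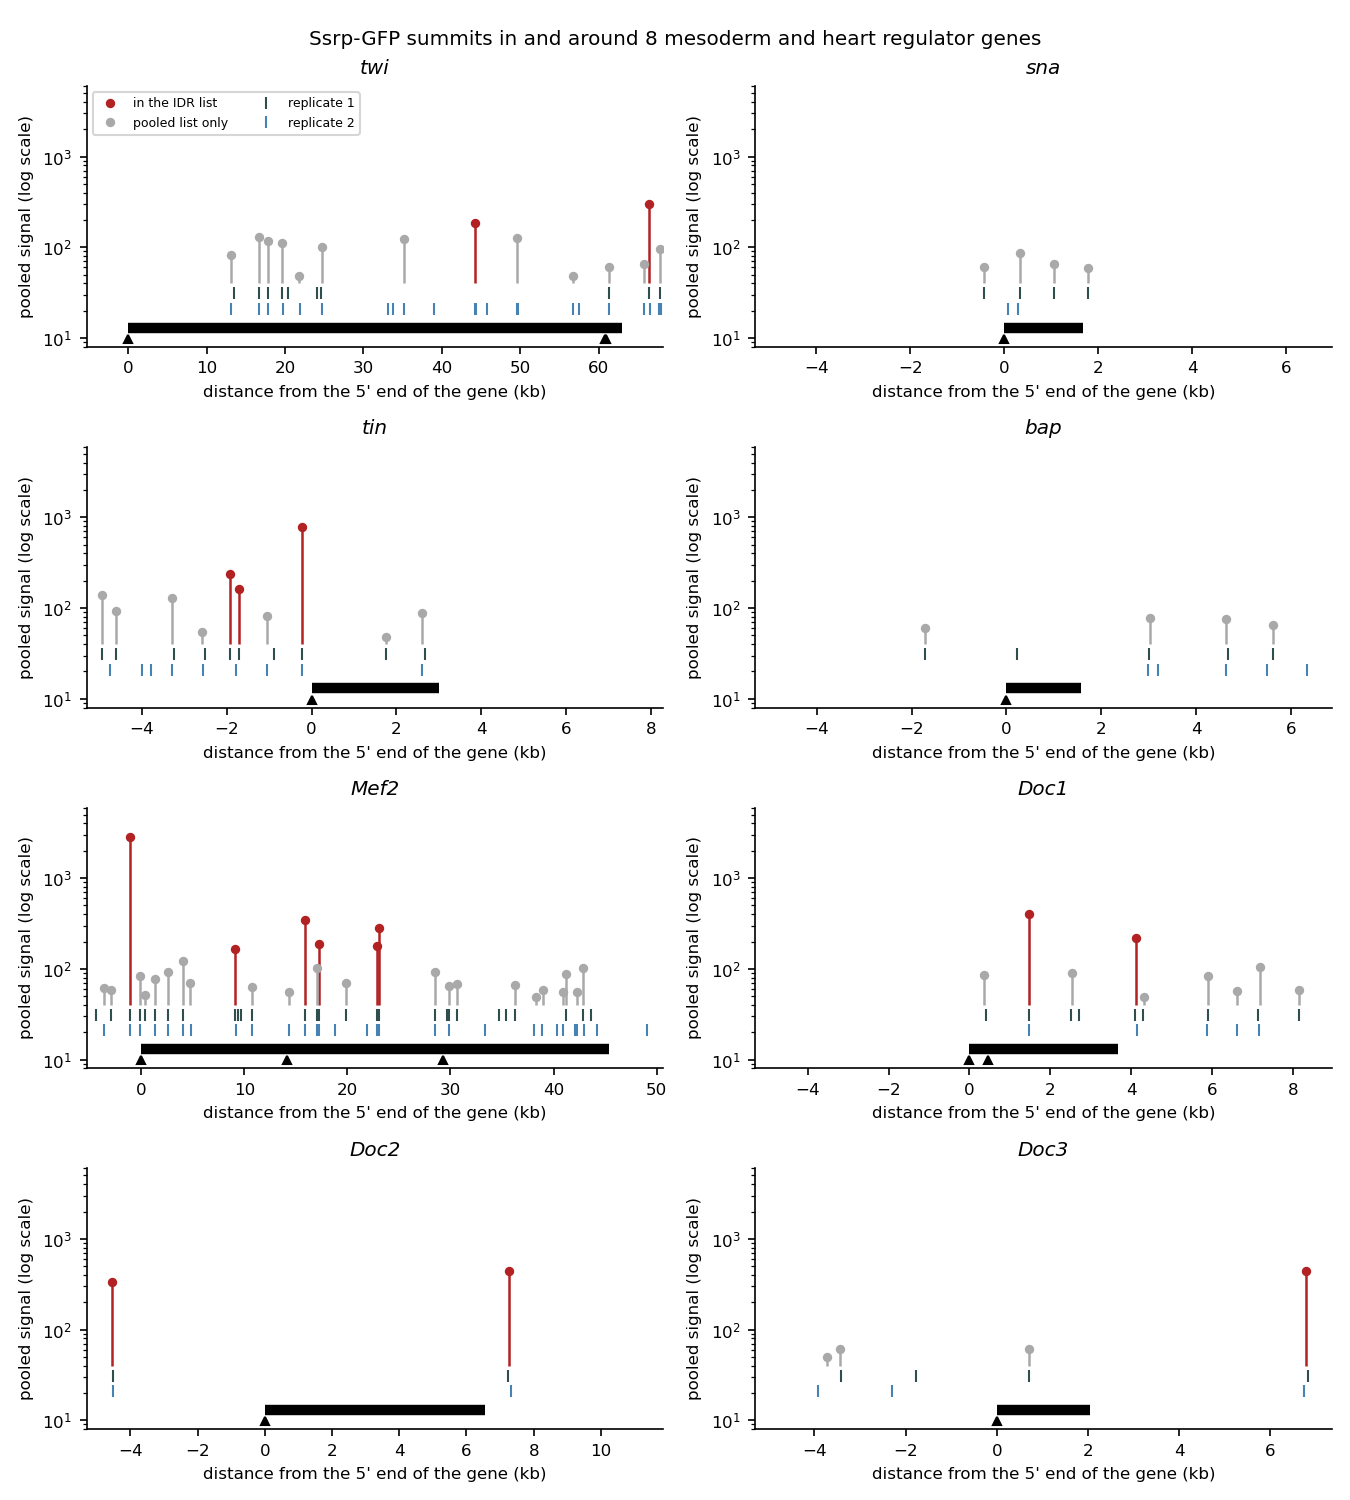
Summits within 5 kb of each gene, plotted by distance from its 5′ end (x axis, kb, in the direction of transcription) and pooled signal (y axis, log scale); red stems are in the IDR list, grey stems in the pooled list only, ticks mark summits of replicate 1 (dark) and replicate 2 (blue), bars the gene and triangles its start sites. The windows of sna and bap have no red stem, tin has its tallest just upstream of the start site, and the tallest stem of all, 2871, is the one upstream of Mef2.

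tin, the homeodomain gene required for the heart, had the one promoter summit. The peak lay at chr3R:21378618-21378885 with its summit 235 bp upstream of the TSS. Its signal was 785, 2.69 times the median of the IDR list, and its rank was 653. Replicate 1 had the same site at rank 741 (signal 342) and replicate 2 at rank 618 (signal 432), with summits 13 and 12 bp away. The ranks differed little between the replicates.

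The sequence under this summit is printed because the site is the strongest of the 15 with no TSS of another gene within 500 bp. It is shown 5′ to 3′ on the plus strand, the strand of tin, over chr3R:21378642-21378842, and capitals mark the longest stretch made only of A and T.

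tin promoter summit: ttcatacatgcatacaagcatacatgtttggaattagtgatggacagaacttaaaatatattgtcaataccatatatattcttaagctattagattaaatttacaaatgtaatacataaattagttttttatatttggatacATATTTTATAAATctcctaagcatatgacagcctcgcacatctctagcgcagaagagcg

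The GC content within 50 bp of the summit was 14.9%, against 44.1% in windows of the same size centred 600 bp to either side. Among all 5445 IDR summits, 68 (1.25%) had a GC content as low or lower. The longest A and T stretch was 13 bp, and 55.4% of IDR summits had one at least as long within 100 bp of the summit. The stretch was of ordinary length for the list, while the base composition as a whole was at its low end. A CATATG, the E-box that Twist is known to bind, began 172 bp upstream of the TSS, 63 bp from the summit.

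The other IDR summits near tin sat at a neighbouring gene. They lay 1924 and 1719 bp upstream of tin, 205 bp from each other, and 348 and 143 bp downstream of a TSS of mod(mdg4), a gene for a family of chromatin proteins, inside that gene. The first (chr3R:21376855-21377250) had a signal of 236 and rank 3507. The second (chr3R:21377060-21377455) had a signal of 161 and rank 5297, the lowest of the 15. Replicate 1 had a peak for each, at ranks 2417 and 3698, while replicate 2 had a single peak that overlapped both, at rank 6137.

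Within 5 kb of tin the pooled list held 7 further summits outside the IDR list, with signals of 47.5 to 139. The strongest, 4936 bp upstream and within 500 bp of the TSS of pre-mod(mdg4)-AA, had rank 6238, and was the member peak just outside the IDR list, as the summit of rank 5297 was the one just inside. The next outside were a summit in an intron of twi, of rank 6648 and signal 131, and another upstream of tin, of rank 6745 and signal 130. With 10 summits in all, tin had at least as many pooled summits as 94.2% of the 6213 protein-coding genes of 0.5 to 2 times its length, whose median was 4. Only 2 of the 10 lay in tin itself, and most of the others lay inside mod(mdg4).

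bap, the gene next to tin and 6909 bp from it, showed a different picture. bap had no IDR summit in its window, and the nearest was the tin promoter summit, 10138 bp upstream of its TSS. The pooled list had 4 summits near bap, at 1714 bp upstream and at 3037, 4626 and 5632 bp downstream of the TSS. Their signals were 60.4, 77.2, 76.3 and 65.6, all under the 157 at which the IDR list ends. No pooled summit lay within the gene or within 500 bp of its TSS. Among 7139 protein-coding genes of 0.5 to 2 times its length, 45.7% had an IDR summit in the gene or within 5 kb.

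sna, the repressor gene, likewise had no IDR summit. The nearest was 12968 bp downstream of its TSS, with rank 4053 and a signal of 207. Its pooled summits numbered 4. The strongest, 327 bp downstream of the TSS (chr2L:15477735-15478130), had a signal of 86.8 and rank 11308, with rank 29067 in replicate 1 and 8378 in replicate 2. The others lay 434 bp upstream of the TSS, 1046 bp downstream in the coding exon and 1772 bp downstream, past the gene, with signals of 60.0, 65.4 and 59.6.

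twi has a long annotated transcript that starts 62952 bp from the end of the gene, and short ones with TSSs at 23046108 and 23046322 on 2R. The window of twi therefore takes in introns of the long transcript and other genes. Its 2 IDR summits lay away from every TSS of twi. The first, at chr2R:23029458-23029853 with signal 184 and rank 4620, was in an intron of the long transcript and inside CG42741, a gene on the opposite strand. It had rank 4433 in replicate 2 and no summit within 100 bp in replicate 1.

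The second, at chr2R:23051629-23052024 with signal 301 and rank 2622, lay 3502 bp past the 3′ end of twi. It was seen by both replicates, with ranks of 2993 in replicate 1 and 2448 in replicate 2. With the long transcript left out of the gene model, a choice made after seeing the data, this was the one IDR summit of twi. At the short transcripts the nearest pooled summit was 364 bp downstream of a TSS, with a signal of 60.6 and rank 20052. The replicates had it at ranks 21711 and 27678. The 12 summits of twi outside the IDR list had signals of 48.4 to 131.

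Mef2, the muscle differentiation gene, had the most IDR summits, 6 in a window of 55363 bp. Of 795 protein-coding genes of 0.5 to 2 times its length, 11.9% had at least as many, and their median was 1. The strongest peak of any member window was here, at chr2R:9959712-9960115, with a signal of 2871 and rank 25 of 5445. It had rank 25 in replicate 1 (signal 1365) and rank 28 in replicate 2 (signal 1511). This summit lay 1057 bp upstream of the most upstream TSS of Mef2, but 183 bp upstream of the TSS of Pdrg1 and 163 bp upstream of a TSS of Pal1, within Pal1. It is thus nearer to the start sites of both neighbours than to that of Mef2.

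The other 5 summits lay inside Mef2, none within 500 bp of its 3 TSSs. Their signals ran from 166 to 346. The strongest of them, at chr2R:9942901-9943025 with rank 2150, lay in a noncoding part of an exon, 1797 bp downstream of the TSS at 9944764. It had rank 1715 in replicate 1 and 2855 in replicate 2. A pair of summits 199 bp apart, of ranks 2799 and 4779, lay 6179 and 6378 bp upstream of the TSS at 9929615, in an intron of the longer transcripts. In replicate 1 they had ranks 2421 and 6435, and in replicate 2 ranks 3406 and 5158.

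The remaining intronic summits of Mef2 had ranks 4584 and 5137. The first had ranks 4389 and 5315 in replicates 1 and 2. The second, 4967 bp upstream of the TSS at 9944764, differed most between the replicates among the member summits present in both, with rank 13529 in replicate 1 and 3583 in replicate 2. Around the start sites of Mef2 the pooled list had only weaker summits. They lay 88 bp upstream and 367 bp downstream of the most upstream TSS, with signals of 82.8 and 51.5, and 196 bp downstream of the TSS at 9944764, with a signal of 55.5. In all, 22 pooled summits of Mef2 were outside the IDR list, with signals of 49.4 to 123.

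The Doc genes lie in a cluster on 3L, Doc3 and Doc2 5436 bp apart and Doc2 and Doc1 22128 bp apart. Each had at least 1 IDR summit in its window, and none had one at its TSS. Doc3 and Doc2 shared the strongest, at chr3L:9011889-9012088, with a signal of 446 and rank 1532. It lay between the genes, 4736 bp past the 3′ end of Doc3 and 701 bp past the 3′ end of Doc2. It had rank 1920 (signal 183) in replicate 1 and 1257 (signal 270) in replicate 2.

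Doc2 had a further summit 4536 bp upstream of its TSS (chr3L:9023698-9023839, signal 332, rank 2287), with rank 3101 in replicate 1 and 1876 in replicate 2. These were the only pooled summits in its window, and both were in the IDR list. Doc1 had an intronic summit 1475 bp from its 5′ end (chr3L:9042759-9042935, signal 402, rank 1750), with ranks of 1454 and 2283 in replicates 1 and 2. It also had a summit 447 bp past its 3′ end (chr3L:9045291-9045686, signal 221, rank 3763), with ranks of 3662 and 4275. At the second TSS of Doc1 the pooled list had a weak summit 94 bp upstream, of signal 85.5 and rank 11577, which replicate 1 had at rank 9014 and replicate 2 lacked. Doc3 had 3 further pooled summits, with signals of 49.7 to 61.3, of which 1 lay in a coding exon, 713 bp from the TSS.

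Sequences under the summits in introns of twi and Mef2 are not printed. The 4 Doc sequences follow, and every one lies outside exons and away from start sites. Each reaches 100 bp to either side of the summit on the plus strand, 5′ to 3′, with the longest stretch of A and T in capitals. The stretches covered chr3L:9011885-9012085 between Doc3 and Doc2, chr3L:9023682-9023882 upstream of Doc2, chr3L:9042750-9042950 in the intron of Doc1 and chr3L:9045389-9045589 past the end of Doc1.

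Between Doc3 and Doc2: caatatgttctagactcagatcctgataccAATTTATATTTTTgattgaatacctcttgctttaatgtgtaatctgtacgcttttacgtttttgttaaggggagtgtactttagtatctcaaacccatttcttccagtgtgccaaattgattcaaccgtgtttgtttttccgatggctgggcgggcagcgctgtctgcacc

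Upstream of Doc2: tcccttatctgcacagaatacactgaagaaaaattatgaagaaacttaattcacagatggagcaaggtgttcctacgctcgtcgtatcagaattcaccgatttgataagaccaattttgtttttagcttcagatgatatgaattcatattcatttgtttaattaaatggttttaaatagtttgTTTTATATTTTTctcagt

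Intron of Doc1: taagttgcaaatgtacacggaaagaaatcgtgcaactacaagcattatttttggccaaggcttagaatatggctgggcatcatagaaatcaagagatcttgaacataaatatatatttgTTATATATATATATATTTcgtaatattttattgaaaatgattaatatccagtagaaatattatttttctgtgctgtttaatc

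Past the end of Doc1: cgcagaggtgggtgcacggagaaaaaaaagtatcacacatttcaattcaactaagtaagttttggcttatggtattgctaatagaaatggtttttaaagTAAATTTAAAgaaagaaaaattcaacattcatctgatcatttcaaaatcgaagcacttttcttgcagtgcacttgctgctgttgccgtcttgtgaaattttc

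The intronic summit of Doc1 had the longest A and T stretch of the 15, 18 bp, and 23.1% of all IDR summits had one at least as long. The other Doc stretches were 13, 12 and 10 bp, against a median of 13 bp over the IDR list. The GC content within 50 bp of the summit was 25.7% in the intron of Doc1, 24.8% past its end, 36.6% between Doc3 and Doc2 and 37.6% upstream of Doc2. All 4 were below their own flanks, which had 50.5%, 40.1%, 47.0% and 45.5%, as were 87.9% of all IDR summits. In the same order, 33.8%, 28.6%, 83.6% and 85.9% of IDR summits had a GC content as low or lower. The summits between Doc3 and Doc2 and upstream of Doc2 were thus richer in GC than most of the list.

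Beyond 5 kb, more IDR summits lay in the gap between Doc2 and Doc1. They were 6636 and 8975 bp upstream of Doc2, with signals of 538 and 362, and 6870, 7632 and 8292 bp upstream of Doc1, with signals of 200, 246 and 228. None was within 500 bp of any TSS, and each had a summit within 100 bp in both replicates, at ranks of 1030 to 4792. From the start of Doc3 to the end of Doc1, a stretch of 39847 bp, 8 of 13 pooled summits (61.5%) were in the IDR list. In all member windows the share was 20.3% (15 of 74), and over the whole pooled list it was 18.1%. This stretch was singled out after its values were seen and was not tested. Of the 8 IDR summits in it, 5 belong to no member window.

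**Figure D2:**
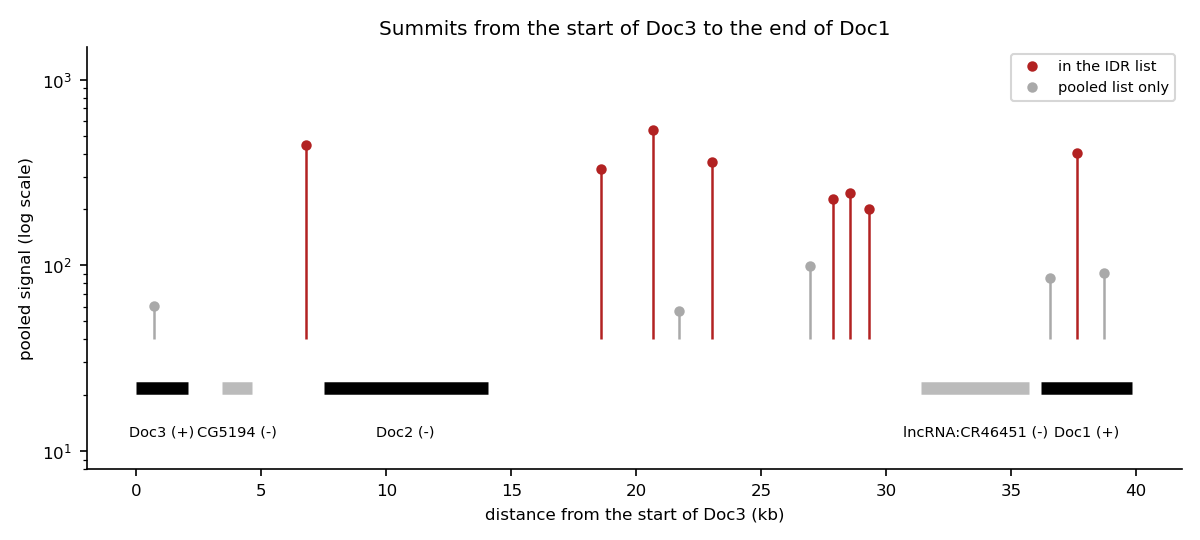
Pooled summits from the start of Doc3 to the end of Doc1, by distance from the start of Doc3 (x axis, kb) and pooled signal (y axis, log scale), red where in the IDR list and grey where not; black bars are Doc genes and grey bars other genes, with their strands. The IDR summits, with signals of 200 to 538, lie between the Doc genes apart from the one in the intron of Doc1, and none lies inside Doc3 or Doc2.

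Other IDR summits between 5 and 10 kb from a member were few. One lay 5279 bp upstream of tin, with a signal of 273, within 500 bp of the TSSs of entries annotated as pre-mod(mdg4)-AA, pre-mod(mdg4)-O and pre-mod(mdg4)-N. Another lay 8836 bp upstream of Doc3, with a signal of 457, within 500 bp of a TSS of smg. twi, sna, bap and Mef2 gained none.

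The replicates were compared at each of the 15 summits. A replicate peak covering at least 50% of the IDR peak, and covered by it to the same degree, was present in both lists for 9 of 15, against 77.4% of all IDR peaks. Of the 6 that missed it, 3 were peaks of 125 to 142 bp, and a much wider replicate peak at the same place misses that rule by its width. By a rule added after this was seen, a replicate summit within 100 bp, 13 of 15 were present in both lists, against 95.0% of all IDR peaks. The exceptions were the intronic summit of twi, which replicate 1 lacked, and the first mod(mdg4) summit near tin. At the latter, replicate 2 had an overlapping peak, but its summit was 139 bp away.

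**Figure D3:**
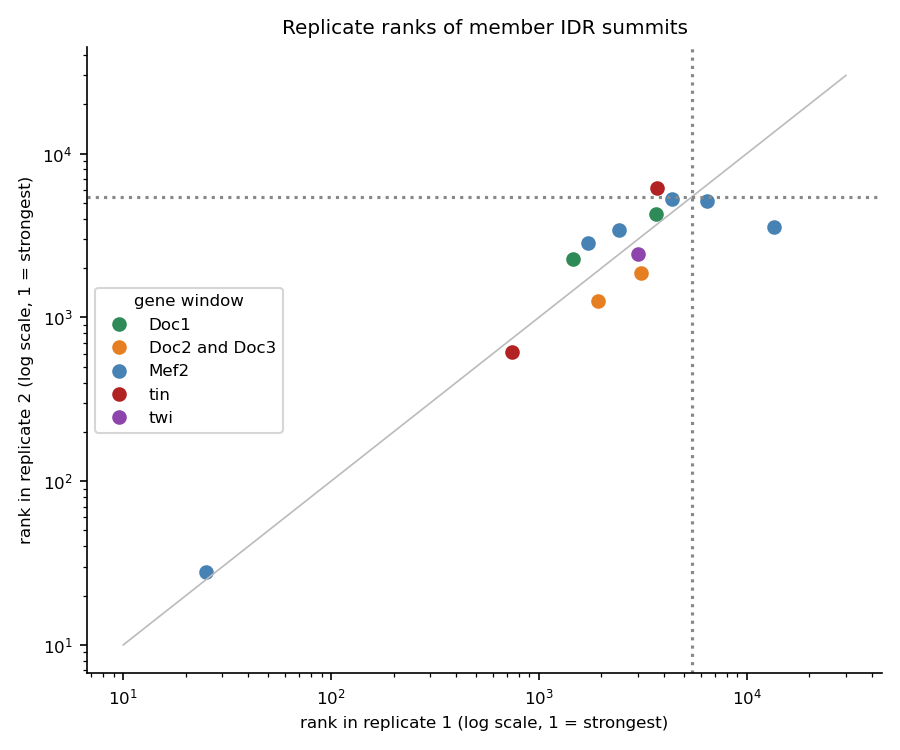
Rank in replicate 1 (x axis) against rank in replicate 2 (y axis), both on log scales with 1 the strongest, for the 13 member IDR summits with a replicate summit within 100 bp in each; the grey line marks equal ranks and the dotted lines rank 5445. Most points lie near the line, the Pdrg1 and Pal1 summit near Mef2 at ranks 25 and 28, and the point farthest from it is the Mef2 intronic summit at 13529 and 3583.

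In the pooled list every member had summits, from 2 at Doc2 to 28 at Mef2, or 8 of 8 genes, against 76.9% of all protein-coding genes. Within 500 bp of a TSS the pooled list had summits at twi, sna, tin, Mef2 and Doc1, 5 of 8 genes, against 43.4%. The pooled list reached far down. The deposited −log10 q-value, higher for surer peaks, went down to 0.35 there and to 2.62 in the IDR list. The strongest TSS summits had 0.53 at twi, 1.04 at sna, 0.95 at Mef2 and 1.01 at Doc1, and the strongest bap summit had 0.83. Except at tin, these TSS summits are thus weak calls. The replicate lists, also of 30000 peaks each, had TSS summits at 6 members in replicate 1 and at 4 in replicate 2. bap and Doc1 had theirs in replicate 1 alone. No share of all protein-coding genes was computed for the replicate lists, so these counts cannot be called high or low. Of the 59 separate pooled summits outside the IDR list, 28 (47.5%) were matched in both replicates by the 50% rule, against 42.5% of all such peaks. By place, 23 of the 59 were in introns, 21 in flanks, 7 in promoters, 6 in coding exons and 2 in noncoding parts of exons.

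Summits in the member windows were GC-poor, with exceptions. The mean GC content within 50 bp of the summit was 34.2% ± 11.0 (SD over 15 summits), against 30.0% ± 7.96 over all 5445 IDR summits. In their flanks the means were 42.6% and 43.1%. GC content was lower than in the flanks at 10 of the 15, against 87.9% of all IDR summits. The other 5 were both mod(mdg4) summits near tin and 3 of the summits inside Mef2. At the noncoding exon of Mef2 the centre had 56.4% and the flanks 28.7%, and 0.569% of IDR summits had a GC content as high or higher. The weaker pooled summits of the member windows had 44.2% ± 11.6 (SD over 59 summits) at the centre and 44.6% in the flanks.

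**Figure D4:**
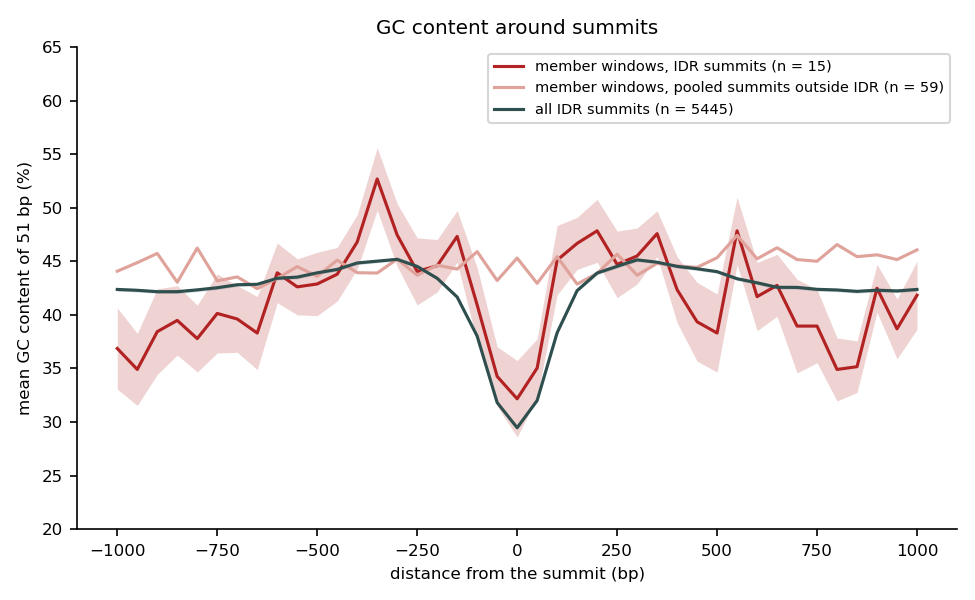
Mean GC content of 51 bp windows (y axis, %) by distance from the summit (x axis, bp) for the 15 member IDR summits, the 59 member pooled summits outside the IDR list and all 5445 IDR summits. The band on each IDR curve is the standard error over the summits of that curve. Both IDR curves dip at the summit, and the curve of the 59 weaker member summits shows no dip.

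Motifs of the factors themselves were sought on both strands in 300 bp centred on each summit, as a description. CATATG, the Twist E-box, was present at 3 of 15 member IDR summits, against 10.7% of all IDR summits. These were the tin promoter and the close pair in Mef2, whose windows overlap. TNAAGTG, a site of Tinman, was present at 3 of 15, against 22.3%. CAGGTG (Snail), the site of Mef2 (a palindrome with a free centre) and AGGTGTGA (T-box) were present at 0 of 15, against 6.28%, 5.62% and 0.386%. CAGGTAG, the site of the early factor Zelda, was present at 1 of 15, the strong summit beside Pdrg1, against 1.18%. GAGAG, the GAGA factor site, was present at 3 of 15, against 30.0%, and a run of 8 A at 4 of 15, against 23.0%. The close mod(mdg4) summits near tin shared the same run of A. CAGGTG can overlap AGGTGTGA by its last 5 letters. A match is no sign that the factor binds there.

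Other genes of the same pathways were looked up by the same rules. Of 15 other mesoderm and heart regulators, 7 had an IDR summit in the gene or within 5 kb and 2 had one at a TSS. At a TSS these were stumps, an adaptor of FGF receptor signalling (signal 1176), and htl, the FGF receptor of the mesoderm (signal 583). Among the genes with no TSS summit, bin, a forkhead gene of visceral muscle, had 1081, tup 922 and zfh1 896, and the summit of tup was within 500 bp of a TSS of CG10602. Of 12 genes of dorsoventral patterning, 8 had a summit within 5 kb and 2 at a TSS. These were cact, the inhibitor of Dorsal (signal 892), and da, the partner of Twist (signal 331). Among those with no TSS summit, the strongest were intronic, in dpp (668), ths (611) and sog (528).

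Of 8 muscle founder and fusion genes, 7 had a summit within 5 kb and 1 at a TSS, mbc, with a signal of 653 there. Among those with no TSS summit, kirre, a founder cell adhesion gene, had 28 summits, the strongest at 1130, siz had 1047, within 500 bp of a TSS of Polr3E, and rols 409. kirre is very long (chrX:2740384-3134532) and contains rst, another gene of this list, so the 2 summits of rst are also counted at kirre. Of 16 muscle structural genes, 8 had a summit within 5 kb and 4 at a TSS. The strongest TSS summits were at Msp300 (992), sls (925) and Tm1 (630). Tm1 and Msp300 also had stronger summits away from their TSSs, of 2151 and 1042, that of Tm1 within 500 bp of TSSs of Cp190 and CG4338. Among the genes with no TSS summit, the strongest were at Mlc2 (293, within 500 bp of a TSS of Rsod), Zasp52 (240) and Act57B (185). The lists differ in gene length, and no difference between them and the 8 members was tested.

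**Figure D5:**
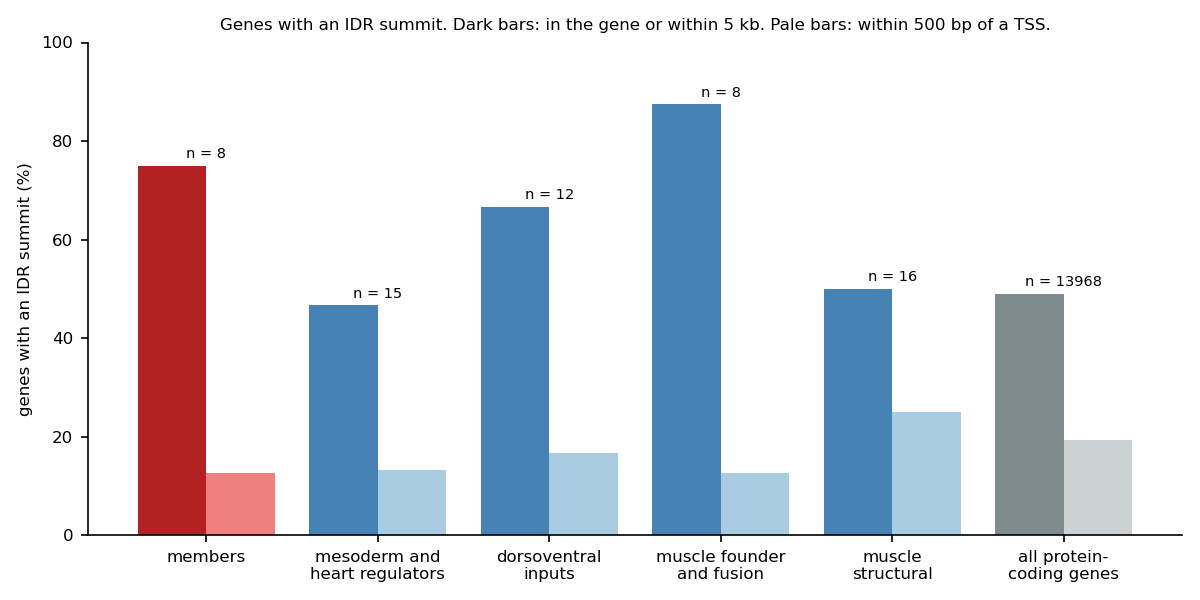
Share of genes (y axis, %) with an IDR summit in the gene or within 5 kb (dark bars) and within 500 bp of a TSS (pale bars) for the 8 members, 4 other lists and all protein-coding genes, with the number of genes above each pair. The members stand at 75.0% and 12.5%, and all protein-coding genes at 49.0% and 19.3%.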

How the data were processed

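Ssrp-GFP ChIP-seq was done on 2 biological replicates of whole embryos. The authors deposited 4 peak lists on dm6: 1 per replicate, a pooled list and an IDR list, with a signal, a −log10 q-value and a summit for each peak. Per the text deposited with the samples, a replicate list rests on the reads of that replicate and on 1 further alignment common to all lists, and the IDR list rests on the others. The sources used here name no aligner, peak caller or IDR threshold, and the scale of the deposited signal is not stated. The deposited −log10 q is capped at 3.85 in the pooled list, a value shared by 9 of the 15 member summits. In the IDR list 4 summits lay outside their peaks and were set to the nearest base of the peak.

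Genes came from Ensembl release 115 without transposable elements, and sequence from the RefSeq release 6 assembly, whose gene coordinates were the same for all 8 members. No peak lay beyond a chromosome end. Overlaps, counts, GC content and motifs were computed in Python 3.11.15 with pandas 2.3.3 and numpy 2.4.6, and summit placement and overlap were tested on simulated data. With 1 group there was no test: members are described beside all protein-coding genes. Read depth is unknown, so no interval is given. The members and gene lists were chosen with earlier results of these data known. All 8 members are named, with every IDR summit in a window and up to 3 genes of each other list with and without a TSS summit, by signal. Alternatives were the flank, the promoter width, the number of peaks, the 5445 strongest peaks of each replicate alone and the overlap rule.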

Additional observations from a re-analysis of the deposited data

How the results depend on the processing

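The count of 6 members with an IDR summit was 5 with flanks of 2 kb and 6 with flanks of 10 kb, among the 2722 strongest of the IDR list and the 10890 strongest of the pooled list (6 members each), and among the 5445 strongest peaks of either replicate taken alone (6 to 6 members). The full lists of 30000 peaks of each replicate had a summit at all 8. With the gene body alone it was 3 members, since a narrower window holds fewer summits. The 15 summits became 7 in gene bodies, 7 among the 2722 strongest peaks and 32 among the 10890 strongest pooled peaks, which follows from the size of those lists and windows. They were 13 to 14 among the 5445 strongest peaks of either replicate (71 and 76 in the full lists), 22 with 10 kb, 13 with 2 kb, 12 without summits near TSSs of other genes and 14 without the longest transcript of twi; both of these last choices were made after seeing the data. tin was the 1 member with a TSS summit with IDR promoter widths of 250 and 1000 bp, among the 2722 and 10890 strongest peaks above, and among the 5445 strongest of either replicate (1 to 1 member). In the full lists, 5 members had one in the pooled list, 6 in replicate 1 and 4 in replicate 2. A share of all protein-coding genes is given only for the gene body (12.2%) and the full pooled list (76.9% within 5 kb, 43.4% at a TSS). The member counts at the other settings have no background beside them, so they do not show how the members compare with other genes. Support in both replicates was 14 of 15 with an overlap of 1 bp and 6 with an overlap of 80% or with the 5445 strongest peaks of each replicate. No paired analysis was possible because there was a single group. Depth is unknown, so how far it limits the weaker peaks of sna and bap cannot be given.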
